A study of Homo sapiens with 8 samples.

Results

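The genes described here encode voltage-gated and potassium channels of EndoC-βH5 cells, a human beta-cell line. They are the protein-coding genes of the deposited table whose symbols mark them as potassium (KCN), calcium (CACNA, CACNB, CACNG), sodium (SCN) or hyperpolarisation-activated (HCN) channel subunits. Leaving out KCNJ11, CACNA1C and CACNA1D, they were chosen by symbol and not by any value, though with earlier results of these data known. There are 82 of them among 16525 listed genes, 13401 of which are protein-coding, and among 137 protein-coding genes with such symbols in RefSeq. The other genes of these families were not analysed here. By ion the 82 genes comprise 53 potassium, 16 calcium, 9 sodium and 4 HCN channel genes, of which 62 encode pore-forming and 20 auxiliary subunits.

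RNA was sequenced from 4 control libraries of untreated cells and 4 libraries of cells exposed for 48 h to IL-1β at 50 U/mL together with IFNγ and TNFα, both at 1000 U/mL. EndoC-βH5 is 1 line, derived from human fetal pancreas by means of SV40 large T-antigen and telomerase transgenes that were later removed, so all 8 libraries share 1 genetic background and no other beta cells were measured. The labels do not say whether libraries came from separate thaws or passages, so the p-values measure only the spread among these libraries. In the deposited table the column names match a control library with a cytokine library by their opening part, giving pairs that are called A to D below. By the ending of the names, pairs A and B go together, and so do pairs C and D. Within each condition libraries A and B were much more alike than any other libraries, so the 4 libraries of a group are not equally independent.

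A beta cell couples glucose metabolism to insulin release through its membrane potential. Closure of ATP-sensitive potassium channels depolarises the cell, voltage-gated calcium and sodium channels carry the action potential, the entering calcium triggers exocytosis of insulin granules, and voltage-gated and calcium-activated potassium channels end each spike. Two-pore-domain, inward rectifier and HCN channels set the resting potential and the pacing, and auxiliary subunits change the gating or the surface density of the pores they bind.

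The values are CPM, reads divided by the library total and put on a common scale. Every value was a whole multiple of 1 read, and 1 read was worth 0.0196 to 0.0214 CPM, for library totals of 46767972 to 51145634 reads. Of these totals, 36577438 to 40117636 reads (73.4% to 79.9%) were on listed genes. Of the 82 channel genes, 77 had at least 10 reads in every library. All 8 beta-cell marker genes were detected, with a summed level of 23007 to 35174 CPM in control and 28377 to 51405 CPM in cytokine libraries, and 4 of the 8 (PDX1, NKX2-2, MAFA and SLC30A8) fell. INS, IAPP, NKX6-1 and CHGA were not called, with log2 fold changes of -0.17, 0.93, 0.39 and 0.39. The sum was mostly CHGA, at 16689 to 24930 CPM in control and 20160 to 36198 CPM in cytokine libraries. The 4 other islet hormone genes summed to 463 to 2177 CPM in control and 553 to 1996 CPM in cytokine libraries, mostly somatostatin, and none was called changed. As many channel genes are also used by neurons, 4 neuronal genes were examined: their summed level was 296 to 378 CPM in control and 295 to 368 CPM in cytokine libraries, and only RBFOX3 among them was called, lower. Of 5 exocrine and duct markers 2 were listed, summing to 88.2 to 167 CPM in control and 84.6 to 166 CPM in cytokine libraries, with CPA1 called lower. Of 6 markers of immune, endothelial and stromal cells 1 was listed, COL1A1, at no more than 0.84 CPM in any library. The part of these differences in the channel results was not tested, and in bulk RNA fewer cells of a type and less RNA per cell cannot be told apart.

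A gene was called changed when its fold change on log2(CPM + 0.1) exceeded 0.5 in size with an FDR below 0.05 in limma, adjusted over all 16525 genes. The log2 fold change was negative in 58 of the 82 channel genes, and also in 10492 of all 16525 genes. Limma called 44 of the 82 channel genes (53.7%), against 27.0% of all genes tested. Of these, 36 (43.9%) were lower with cytokines, against 17.5% of all genes, and 8 (9.76%) were higher, against 9.52% of all genes. Calls of lower expression were thus more frequent among channel genes than over the whole table, and calls of higher expression were about as frequent as in the whole table.

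The 4 cytokine libraries lay entirely below the 4 control libraries in 37 channel genes, against 21.9% of all genes, and entirely above them in 10, against 10.8% of all genes. These 47 genes compare with 32.8% of all genes in either direction, and the ranges overlapped in the other 35. All 44 called genes moved the same way in each of the 4 pairs, and 42 of them had no overlap between the groups, KCNK5 and CACNG2 being the exceptions. Limma made 4470 calls among all 16525 genes, and 4459 of these kept their direction in the 4 pairs. The ranges were separate in 4089 of the 4470. Both features were thus common to most calls and do not set the channel genes apart. The median log2 fold change was -0.46 over the channel genes and -0.17 over all genes tested. TMM scaling, which takes out a shift common to most genes, moved the median of all genes from -0.17 to -0.01 and that of the channel genes to -0.32. With TMM, 10 channel genes were called higher and 27 lower, against 13.1% and 11.6% of all genes (24.7% in either direction). SCN3A and CACNA1E were the additional calls higher, and 9 lower calls, among them KCNK5, KCND1, CACNG2, SCN3B, KCNAB2, CACNA1H and CACNA1B, were not made. On recovered reads edgeR called 10 higher and 28 lower, against 13.1% and 11.4% of all genes (24.5% in either direction), and limma with the pairs as a block called 9 higher and 39 lower, against 11.6% and 23.8% (35.4% in either direction). Without control library B, the lower calls numbered 32, the smallest count with 1 library left out, against 2581 of all 16525 genes in that fit.

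**Figure D1:**
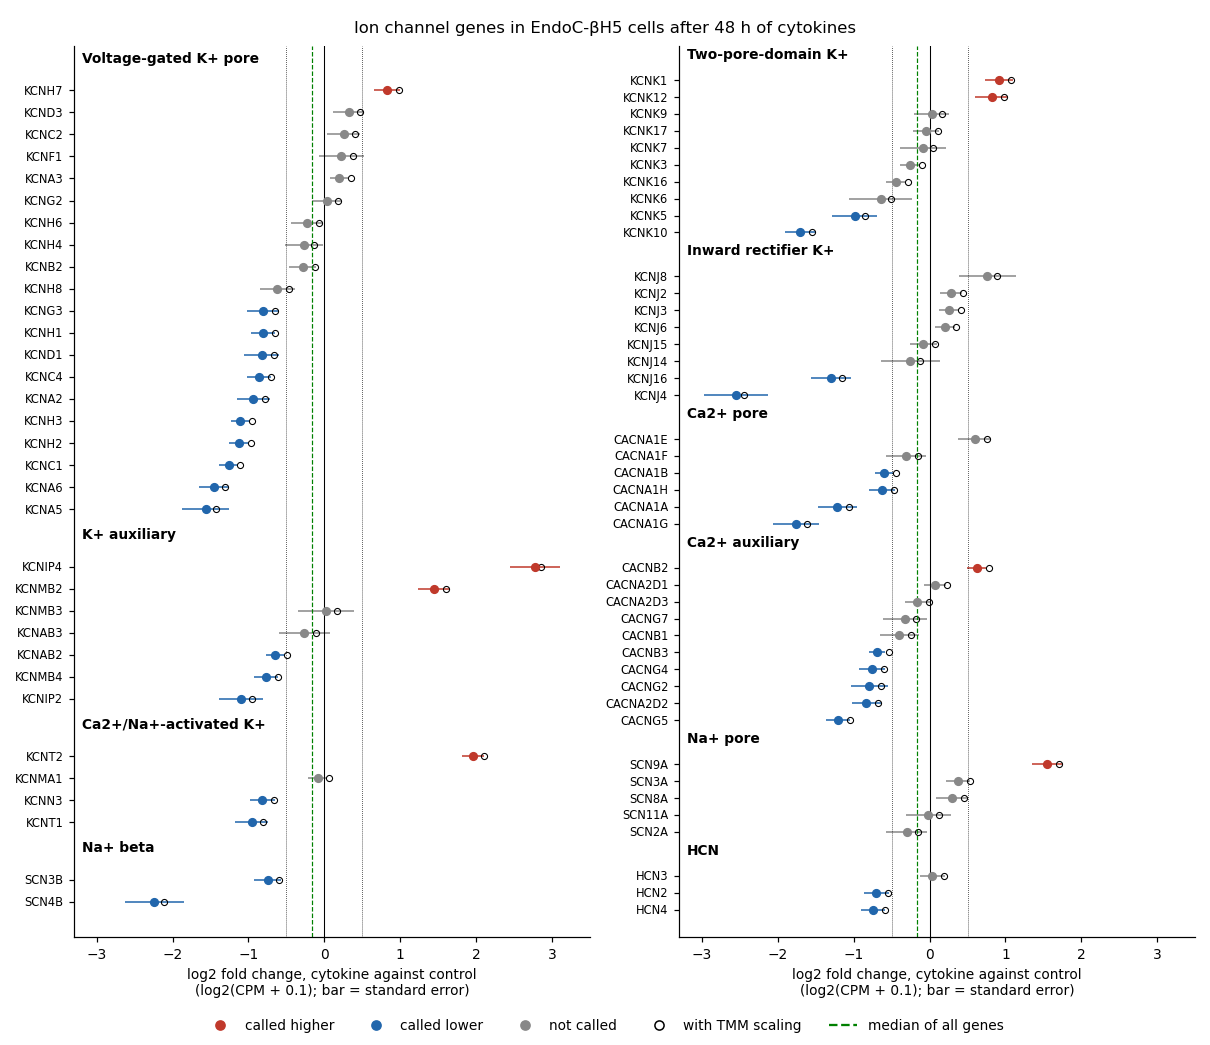
Log2 fold change of 75 of the 82 channel genes, cytokine against control (4 libraries each), by role of the subunit. Filled points with bars give the estimate and its standard error, coloured by call (red higher, blue lower, grey not called), open circles give the same with TMM scaling, dotted lines mark 0.5 and -0.5, and the dashed line marks the median of all genes. The genes called lower reach -2.55 (KCNJ4) and the 8 called higher reach 2.78 (KCNIP4).

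Levels can be compared between genes only per length, so they are given here as TPM, reads per kilobase of annotated exon scaled to the same total in each library. The length counts every annotated exon base of a gene, so a long annotation, such as the 43159 bases of CACNA1A, lowers its TPM. Ranks and shares by TPM carry this limit. In control libraries the highest channel genes were 2 two-pore-domain potassium channel genes, KCNK16 at 749 ± 172 TPM and KCNK17 at 302 ± 46.3 TPM (SD, n = 4). KCNH6, an ERG-type voltage-gated potassium channel gene, followed at 261 ± 21.6 TPM, a difference from KCNK17 that was within their spread. CACNG4 at 151 ± 12.3 TPM, CACNA2D2 at 151 ± 9.15 TPM and KCNH2 at 147 ± 17.9 TPM did not differ beyond their spread. The 5 highest genes held 51.8% to 57.8% of the summed TPM of all channel genes in the 8 libraries. KCNK16, KCNK17 and KCNH6 kept the 3 highest mean levels with cytokines, at 591 ± 106, 319 ± 62.1 and 244 ± 40.4 TPM (SD, n = 4). HCN3 had rank 8 at 98.0 ± 10.3 TPM in control and rank 4 at 109 ± 7.29 TPM in cytokine libraries, a difference within the spread. KCNT2 moved from rank 39 to rank 18, at 7.09 ± 0.989 and 30.1 ± 5.71 TPM. The called-lower genes had a median control level of 9.56 TPM, the called-higher genes 5.03 TPM and the genes not called 4.24 TPM.

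**Figure D2:**
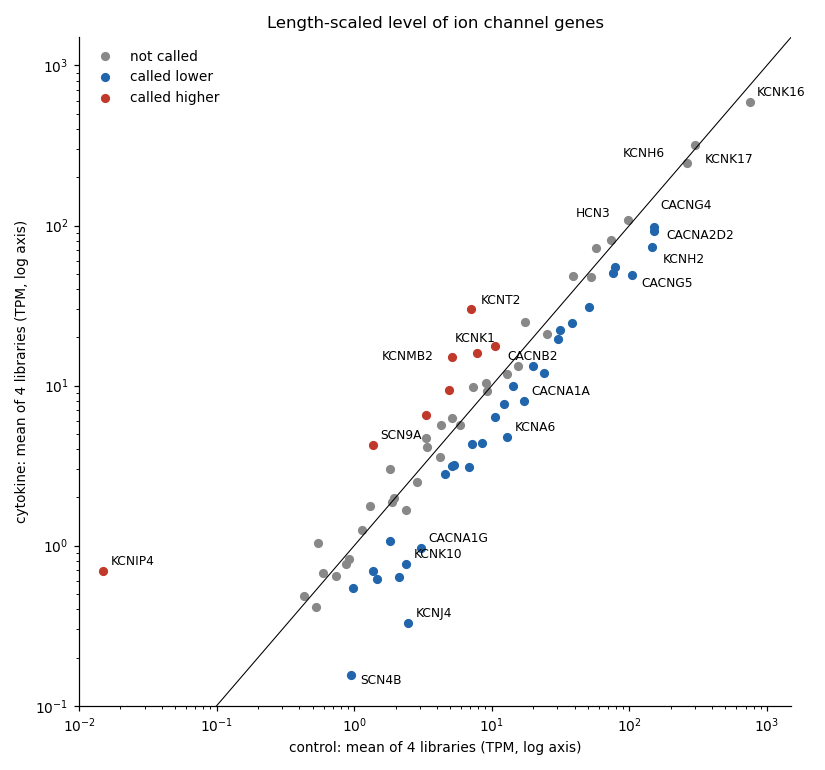
Mean TPM of 75 of the 82 channel genes in the 4 control (x axis) and the 4 cytokine libraries (y axis), both on log scales, coloured by call. The line marks equal levels. KCNK16, KCNK17 and KCNH6 sit at the top near the line, KCNT2 sits above it at 7.09 and 30.1 TPM, and KCNIP4 lies alone at the left with 3 control reads in all.

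Voltage-gated potassium channels repolarise the spike. Of 24 pore-forming genes of this class 12 fell (50%, against 17.5% of all genes) and 1, KCNH7, rose (4.17%, against 9.52%). The called gene with the highest level per length in this class was KCNH2, the ERG channel gene known for its part in cardiac repolarisation and in spike firing of beta cells, located on chromosome 7 at 150944961 to 150978315 (GRCh38, minus strand). It measured 241, 234, 240.5 and 193 CPM in control libraries A to D and 110.5, 118, 99.4 and 89.1 CPM in cytokine libraries A to D. All cytokine libraries were thus well below the lowest control library, control D. The log2 fold change was -1.13 ± 0.13 (SE) with an adjusted p of 9.83e-05 in limma. KCNH6 of the same ERG group measured 358, 332, 233 and 246 CPM in control libraries and 303, 310.3, 176 and 223 CPM in cytokine libraries. The groups overlapped, each cytokine library was below the control library of its pair, and KCNH6 was not called (log2 fold change -0.22 ± 0.21, adjusted p = 0.46 in limma). KCNH7, the third ERG gene, rose from 5.32, 6.75, 7.45 and 5.81 CPM to 13.3, 12.4, 9.60 and 10.1 CPM, without overlap (log2 fold change 0.83 ± 0.17, adjusted p = 0.00415).

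KCNC1, a fast delayed rectifier of the Kv3 group, fell from 28.4, 26.2, 24.5 and 24.8 CPM to 10.4, 11.04, 9.99 and 11.7 CPM (log2 fold change -1.26 ± 0.12, adjusted p = 2.36e-05), and its relative KCNC4 fell by 0.86 on the log2 scale. KCNG3, a modulatory subunit that is silent alone, fell by 0.81 on the log2 scale, whereas the delayed rectifier gene KCNB2 overlapped between the groups at 14.3 ± 3.48 and 11.5 ± 1.05 CPM (SD, n = 4) and was not called.

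The Kv1 genes KCNA5, KCNA6 and KCNA2 fell and KCNA3 was not called. KCNA5 had 0.941, 1.25, 2.21 and 1.62 CPM in control libraries and 0.298, 0.598, 0.403 and 0.422 CPM in cytokine libraries, from 44 to 111 and from 14 to 28 reads, and fell by 1.56 on the log2 scale. Listing required more than 0.5 CPM in 4 samples, which the controls of KCNA5 met and its cytokine libraries did not. KCNA6 had 10.3, 14.2, 19.0 and 12.5 CPM in control libraries and 5.60, 4.74, 4.59 and 4.74 CPM in cytokine libraries, and fell by 1.46 on the log2 scale. All 4237 of its annotated exon bases are shared with another annotated gene on the same strand, so its value is uncertain. KCNA2 fell by 0.94 on the log2 scale, while KCNA3, the Kv1.3 gene best known from T cells, had 26.0 ± 2.56 CPM in control and 29.7 ± 2.70 CPM in cytokine libraries (SD, n = 4). Also called in this class were the KCNH family genes KCNH3 (-1.11) and KCNH1 (-0.81, with 3618 of 9812 exon bases shared with a gene on the other strand) and the A-type gene KCND1 (-0.83, all as log2 fold changes), all lower. KCND1 was not called when control library A or B or cytokine library C or D was left out (adjusted p from 0.0514 to 0.0583 in limma). KCND3, KCNC2, KCNF1, KCNG2 and KCNH4 were not called and had log2 fold changes from -0.27 to 0.32. For KCNF1 cytokine library C stood at 25.2 CPM and the other cytokine libraries at 8.39 to 10.6 CPM, and without it the log2 fold change was -0.12.

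KCNH8, an ELK-type gene of the KCNH family, had 3.21, 3.73, 3.23 and 4.83 CPM in control libraries and 2.38, 1.69, 2.44 and 3.19 CPM in cytokine libraries. The cytokine libraries were all below the controls, and it was not called (log2 fold change -0.62 ± 0.23, adjusted p = 0.0657 in limma). It was called lower with the pairs as a block, which compares each cytokine library with its own control (adjusted p = 0.00612), and without cytokine library D (adjusted p = 0.0422).

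Auxiliary subunits of potassium channels moved in both directions: of 7 genes 2 rose (28.6%, against 9.52% of all genes) and 3 fell (42.9%, against 17.5%). These counts are too small to set apart from the whole table. KCNIP4, which encodes a calcium-binding partner of Kv4 channels, had 0, 0, 1 and 2 reads in control libraries and 37, 22, 29 and 48 reads in cytokine libraries. It was thus near the limit of detection in untreated cells and was counted in every cytokine library. Per read of library total the summed level was 45.8 times higher with cytokines (95% interval 15.4 to 225, counting error only), and its fitted log2 fold change of 2.78 depends on the pseudocount. No control library reached 0.5 CPM, the level that listing required in 4 samples. Controls could thus not bring KCNIP4 into the table, so its rise and the lack of overlap carry that selection. KCNIP2, of the same family, fell from 9.0, 9.14, 5.36 and 7.39 CPM to 4.43, 4.98, 1.95 and 3.34 CPM (log2 fold change -1.10 ± 0.29, adjusted p = 0.015 in limma).

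KCNMB2 encodes an inactivating beta subunit of the BK channel, the large calcium-activated potassium channel. It rose from 4.04, 4.89, 5.99 and 3.99 CPM to 15.3, 16.9, 9.90 and 10.7 CPM (log2 fold change 1.45 ± 0.21, adjusted p = 0.000573), with larger values in cytokine libraries A and B than in C and D. KCNMB4, another BK beta subunit gene, fell from 13.3, 16.1, 19.8 and 13.4 CPM to 9.13, 8.74, 9.42 and 8.80 CPM (log2 fold change -0.77 ± 0.16, adjusted p = 0.00379). Of the exon bases of KCNMB2, 1138 of 3542 are shared with another gene on the same strand. KCNMA1, which encodes the BK pore itself, had 73.7, 80.3, 102.7 and 82.2 CPM in control libraries and 75.2, 78.8, 84.1 and 78.0 CPM in cytokine libraries. The groups overlapped and it was not called (log2 fold change -0.09 ± 0.12, adjusted p = 0.622 in limma). KCNAB2, a Kv1 beta subunit gene, fell by 0.65 on the log2 scale, and KCNAB3 and KCNMB3 were not called.

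Potassium channels activated by calcium or sodium were 4, of which 1 rose (25%, against 9.52% of all genes) and 2 fell (50%, against 17.5%). These counts are too small to set apart from the whole table. The rise, in KCNT2, had the smallest adjusted p of any channel gene. KCNT2, on chromosome 1 at 196225779 to 196609225 (GRCh38, minus strand), encodes Slick, a pore opened by intracellular sodium and chloride. It had 13.5, 13.1, 12.3 and 13.6 CPM in control libraries and 56.2, 54.5, 38.6 and 57.6 CPM in cytokine libraries. The controls were tightly grouped, cytokine library C was the lowest of the treated libraries, and every cytokine library was far above every control. The mean was 3.94 times higher with cytokines, the log2 fold change was 1.95 ± 0.15 and the adjusted p was 3.52e-06 in limma. KCNT1, which encodes the related pore Slack, fell from 3.53, 2.60, 2.97 and 3.32 CPM to 1.19, 1.35, 1.71 and 2.03 CPM (log2 fold change -0.96 ± 0.22, adjusted p = 0.00783). KCNN3, a small-conductance calcium-activated channel gene, fell from 16.1 ± 1.43 to 9.19 ± 1.75 CPM (SD, n = 4), without overlap.

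**Figure D3:**
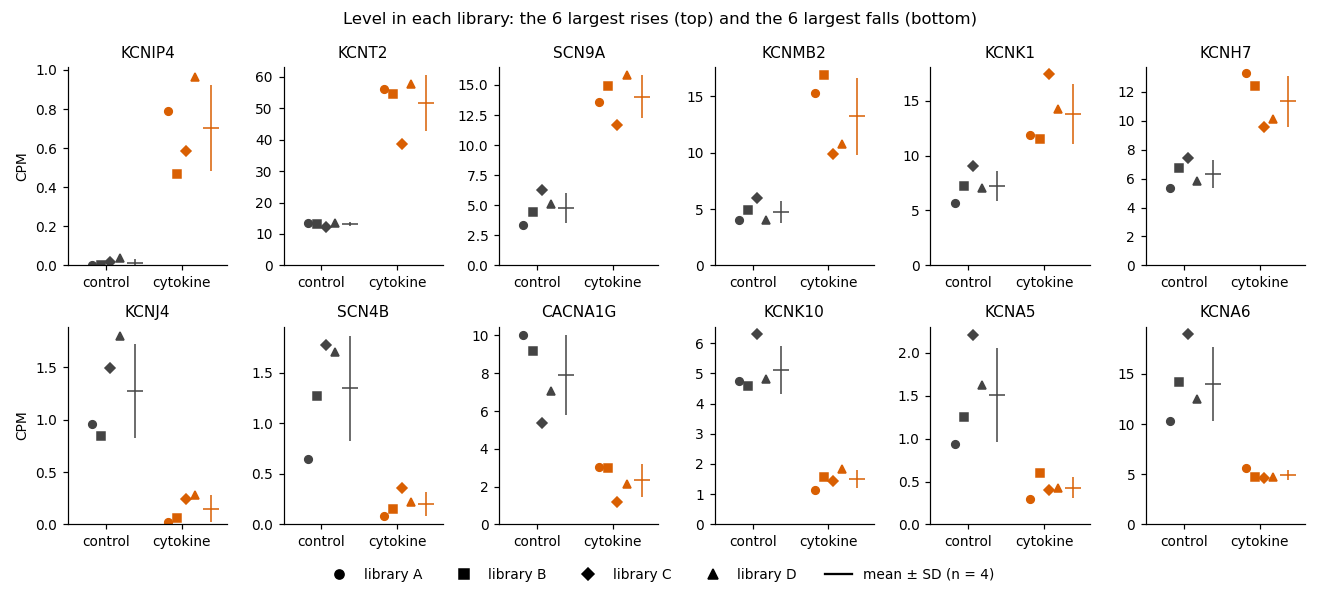
CPM in each of the 4 control and 4 cytokine libraries (symbols for pairs A to D) with mean and SD, for the 6 called channel genes that rose most and the 6 that fell most, each panel on its own linear axis from 0. In all 12 genes the groups do not overlap, and KCNT2 moves from 12.3 to 13.6 CPM in control to 38.6 to 57.6 CPM in cytokine libraries. Listing required more than 0.5 CPM in 4 samples. KCNJ4, SCN4B and KCNA5 met this only by their controls, and no control of KCNIP4 reached that level.

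Two-pore-domain potassium channels carry background current at rest. Of 10 genes 2 rose and 2 fell, 20% each way, against 9.52% higher and 17.5% lower over all genes, so the share that fell was near that of the whole table. KCNK16, which encodes the islet channel TALK-1, had 317, 346, 395 and 380.1 CPM in control libraries and 261, 263, 236 and 297 CPM in cytokine libraries. All cytokine libraries were below all controls, but the log2 fold change of -0.45 ± 0.13 was under the 0.5 asked of a call (adjusted p = 0.0203 in limma). It was called lower without control library A or without cytokine library D, at -0.50 in both fits. KCNK17, which encodes the related TALK-2 and lies 0.1 kb from KCNK16 on chromosome 6, had 186, 174, 143 and 184 CPM in control libraries and 186, 191, 116 and 181 CPM in cytokine libraries. These groups overlapped fully and it was not called (log2 fold change -0.05 ± 0.17). KCNK3, the acid-sensitive TASK-1 gene, overlapped between groups at 86.2 ± 8.81 and 72.4 ± 9.30 CPM (SD, n = 4) and was not called.

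KCNK1, the TWIK-1 gene, rose from 5.67, 7.22, 9.02 and 7.06 CPM to 11.9, 11.6, 17.4 and 14.2 CPM (log2 fold change 0.92 ± 0.19, adjusted p = 0.00405 in limma). KCNK12, which encodes THIK-2, rose from 7.01, 5.19, 6.45 and 4.71 CPM to 10.7, 8.56, 14.8 and 8.22 CPM (log2 fold change 0.82 ± 0.22, adjusted p = 0.0148). In both genes cytokine library C was the highest. KCNK10, which encodes the stretch- and lipid-sensitive channel TREK-2, fell from 4.75, 4.59, 6.29 and 4.81 CPM to 1.15, 1.58, 1.45 and 1.85 CPM (log2 fold change -1.70 ± 0.21, adjusted p = 0.000141), and control library C was the highest. KCNK5, the TASK-2 gene, fell by 0.99 on the log2 scale with overlapping groups, and this call was not made with TMM scaling, nor without control library A, B or C or cytokine library B or D (adjusted p from 0.052 to 0.0666 in limma). KCNK6, KCNK7 and KCNK9 stayed under 1.2 CPM in every library and were not called.

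Inward rectifiers let potassium in more easily than out and hold the resting potential. Of 8 listed genes 2 fell (25%, against 17.5% of all genes) and none rose, counts too small to set apart from the whole table. KCNJ4, which encodes the classical rectifier Kir2.3, had 45, 40, 75 and 92 reads in control libraries and 1, 3, 12 and 14 reads in cytokine libraries. In CPM the groups were 0.962, 0.847, 1.49 and 1.80 against 0.0213, 0.0641, 0.242 and 0.281, the cytokine libraries of C and D being above those of A and B. It had the largest fall of all channel genes, with a log2 fold change of -2.55 ± 0.42 (adjusted p = 0.00114 in limma). Among the libraries used, only its controls exceeded 0.5 CPM, the level that listing required in 4 samples. The size of the fall thus carries the selection made by that filter. KCNJ16, which encodes Kir5.1, fell from 2.91, 2.52, 1.83 and 2.58 CPM to 0.809, 1.39, 0.664 and 0.964 CPM (log2 fold change -1.30 ± 0.26, adjusted p = 0.0037). The G protein-gated genes KCNJ3 and KCNJ6, which respond to inhibitory hormones and transmitters, were not called, KCNJ3 at 74.8 ± 8.23 and 89.4 ± 12.1 CPM and KCNJ6 at 26.6 ± 3.77 and 30.4 ± 2.57 CPM (SD, n = 4). KCNJ2, KCNJ8, KCNJ14 and KCNJ15 were not called, and in KCNJ2 the 4 cytokine libraries (7.03 to 8.66 CPM) were all above the 4 controls (5.77 to 6.97 CPM).

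Calcium channel pores admit the calcium that triggers exocytosis. Of the 6 pore-forming genes 4 fell (66.7%, against 17.5% of all genes) and none rose (against 9.52%). CACNA1A, on chromosome 19 at 13206442 to 13633025 (GRCh38, minus strand), encodes the P/Q-type pore used in human beta cells. It had 255, 230.2, 120.1 and 185 CPM in control libraries and 97.4, 96.8, 51.9 and 91.6 CPM in cytokine libraries. Library C was the lowest in both groups, and the groups did not overlap. The log2 fold change was -1.21 ± 0.26 (adjusted p = 0.00521 in limma), lying between -1.39 and -1.01 in the 4 pairs.

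CACNA1G, a T-type gene whose product opens at low voltage, fell from 10.03, 9.17, 5.38 and 7.04 CPM to 3.02, 2.97, 1.19 and 2.15 CPM (log2 fold change -1.76 ± 0.31, adjusted p = 0.00153). CACNA1H, the other T-type gene listed and the highest of the calcium pore genes per length, fell from 225, 211, 146 and 144 CPM to 119.8, 132, 108 and 101.5 CPM (log2 fold change -0.63 ± 0.17, adjusted p = 0.0164). That rank depends on annotated exon length, 8606 bases against 43159 for CACNA1A, whose control mean in CPM was 198 against 182. In CACNA1H the gap between the groups was small, and the call was not made with TMM scaling (adjusted p = 0.105 in limma) or without control library B (log2 fold change -0.55, adjusted p = 0.0529). CACNA1B, which encodes the N-type pore, fell from 81.2 ± 7.43 to 53.5 ± 4.78 CPM (SD, n = 4), with a log2 fold change of -0.60, or -0.44 and not called with TMM. CACNA1E, the R-type gene, had 8.83, 9.27, 6.41 and 10.3 CPM in control libraries and 16.1, 13.5, 8.80 and 15.0 CPM in cytokine libraries. Cytokine library C alone overlapped with the controls. CACNA1E was not called (log2 fold change 0.60 ± 0.22, adjusted p = 0.0586 in limma), but was called higher with the pairs as a block (adjusted p = 0.000266), with TMM scaling (adjusted p = 0.0318) and without cytokine library C (adjusted p = 0.0111). CACNA1F, a retinal L-type gene, was not called.

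Of the 10 genes classed by symbol as auxiliary calcium channel genes 1 rose (10%, near the 9.52% of all genes) and 5 fell (50%, against 17.5%). Whether their products bind calcium channel pores in these cells was not measured. CACNB2, which encodes a beta subunit that brings pores to the membrane, rose from 26.2, 28.4, 22.7 and 22.2 CPM to 40.7, 41.6, 34.9 and 35.7 CPM (log2 fold change 0.62 ± 0.13, adjusted p = 0.00396 in limma). CACNB3, of the same role, fell from 35.6, 36.4, 37.4 and 38.6 CPM to 22.1, 22.6, 22.7 and 24.1 CPM (log2 fold change -0.69 ± 0.10, adjusted p = 0.000587). Neither gene overlapped between the groups, and they moved in opposite directions, whereas CACNB1 overlapped and was not called.

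Among the alpha-2-delta subunits, which traffic pores to the surface, CACNA2D2 fell from 305, 266, 218 and 219.8 CPM to 171, 175, 105 and 124 CPM (log2 fold change -0.83 ± 0.19, adjusted p = 0.00678 in limma). CACNA2D1 had 138, 152, 194 and 193 CPM in control libraries and 174, 165, 169 and 197 CPM in cytokine libraries, with overlap and no call, and CACNA2D3 was not called either. Of the genes classed by symbol as gamma subunits, CACNG5, CACNG4 and CACNG2 fell. CACNG5 had 34.5, 31.9, 34.9 and 41.2 CPM in control libraries and 16.7, 16.2, 11.3 and 18.0 CPM in cytokine libraries (log2 fold change -1.21 ± 0.16, adjusted p = 0.000289), and CACNG4 fell from 135 ± 19.5 to 80.4 ± 16.5 CPM (SD, n = 4). CACNG2 fell by 0.79 on the log2 scale with overlapping groups and was not called with TMM or when control library A or B or cytokine library A, C or D was left out (adjusted p from 0.0633 to 0.077 in limma), and CACNG7 was not called.

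Sodium channel pores carry the fast upstroke of the spike. SCN9A, which encodes Nav1.7, rose from 3.34, 4.47, 6.29 and 5.10 CPM to 13.6, 14.9, 11.7 and 15.8 CPM (log2 fold change 1.55 ± 0.20, adjusted p = 0.000229 in limma). Its lowest cytokine library, C, was still above its highest control library, also C. SCN8A and SCN3A, the highest sodium pore genes per length, were not called, at 28.9 ± 5.02 and 36.1 ± 9.40 CPM and at 8.53 ± 1.20 and 11.1 ± 1.72 CPM (SD, n = 4). The SCN3A libraries did not overlap, and the gene was called higher with TMM scaling (log2 fold change 0.53, adjusted p = 0.0292). SCN2A and SCN11A were not called.

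Beta subunits of sodium channels modulate gating and adhesion, and SCN4B and SCN3B fell. SCN4B had 30, 60, 89 and 87 reads in control libraries and 4, 7, 18 and 11 reads in cytokine libraries. These gave 0.641, 1.27, 1.77 and 1.70 CPM against 0.0852, 0.150, 0.362 and 0.221 CPM, without overlap (log2 fold change -2.24 ± 0.39, adjusted p = 0.00149 in limma). As for KCNJ4, only the controls exceeded 0.5 CPM, the level for listing, so this fall carries the same selection. SCN3B fell from 119, 103.9, 74.4 and 88.2 CPM to 64.3, 66.8, 45.0 and 52.4 CPM (log2 fold change -0.75 ± 0.17, adjusted p = 0.00812, or 0.0518 with TMM).

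HCN channels open on hyperpolarisation and pace rhythmic cells. HCN2 and HCN4 fell and HCN3 did not pass the test. HCN4 went from 67.3, 71.9, 51.3 and 44.7 CPM to 37.3, 36.8, 33.7 and 30.3 CPM (log2 fold change -0.74 ± 0.16, adjusted p = 0.00575 in limma). HCN2 went from 70.7, 81.5, 63.8 and 57.9 CPM to 49.9, 47.4, 40.9 and 31.4 CPM (log2 fold change -0.70 ± 0.17, adjusted p = 0.00882). The HCN2 call was at its limit with TMM (adjusted p = 0.0498 in limma) and was not made by edgeR (adjusted p = 0.0508) or with median-of-ratios scaling (adjusted p = 0.0603). Neither gene overlapped between groups. HCN3, the most abundant of the 4 genes per length, had 129, 119.1, 81.3 and 99.0 CPM in control libraries and 121, 118.8, 92.1 and 103.7 CPM in cytokine libraries, with overlap (log2 fold change 0.04 ± 0.16).

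Each gene's share of the summed TPM of its listed relatives was computed per library, as a description with no test. The shares do not show which subunits form a channel. A share also rises when relatives fall: KCNH6 and CACNA2D1, with log2 fold changes of -0.22 and 0.07, were not called. KCNT2 made up 87.9% ± 1.21 of the KCNT pair in control and 98.2% ± 0.590 in cytokine libraries (SD, n = 4). Among BK beta subunits KCNMB2 went from 27.4% ± 1.01 to 62.6% ± 5.49, and KCNMB4 from 65.9% ± 2.30 to 32.2% ± 6.25, so that the order of these 2 genes was inverted in all 4 pairs. CACNB2 went from 18.9% ± 0.708 to 34.0% ± 2.57 of the CACNB genes. KCNIP4 went from 0.179% ± 0.213 to 14.4% ± 5.81 of the KCNIP pair, with 3 control reads in all. Controls could not bring KCNIP4 into the table, so its share carries the selection made by the listing filter. CACNA2D1 went from 31.5% ± 6.90 to 45.3% ± 6.76 of the alpha-2-delta genes, SCN9A from 9.5% ± 3.57 to 20.5% ± 1.76 of the sodium pore genes, and CACNA1E from 1.35% ± 0.321 to 3.27% ± 0.675 of the 6 calcium pore genes described here, which leave out CACNA1C and CACNA1D. KCNH2 went from 33.1% ± 3.74 to 21.4% ± 3.18 of the KCNH genes while KCNH6 went from 58.5% ± 4.66 to 70.6% ± 4.22. Shares are given here only for genes whose 4 cytokine and 4 control shares did not overlap, so the lack of overlap is no result about them. The shares of other relatives overlapped, among them CACNB1, KCNMB3, CACNA2D3, SCN8A, SCN3A, KCNH1 and CACNA1A. The summed level of all 82 genes was 4202, 4007, 3482 and 3527 CPM in control libraries and 3041, 3065, 2326 and 2682 CPM in cytokine libraries.

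**Figure D4:**
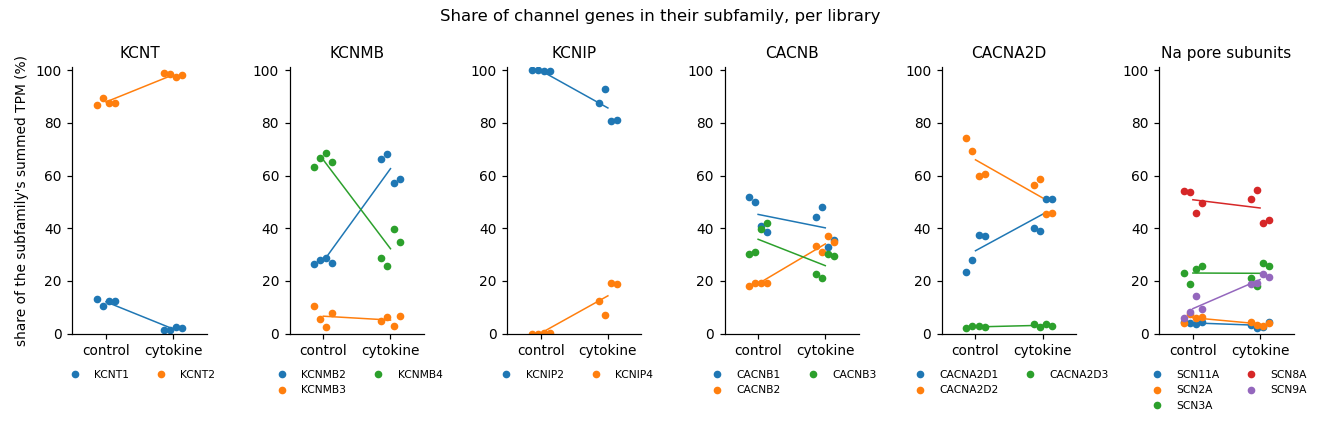
Share of the genes shown in the summed TPM of its subfamily, in percent, in the 4 control and the 4 cytokine libraries (points) with lines joining the means, for the KCNT, KCNMB, KCNIP, CACNB, CACNA2D and sodium pore genes. KCNMB2 and KCNMB4 cross, and KCNT2 goes from 87.9% to 98.2%.

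Several channel genes lie next to one another, and neighbours within 300 kb formed 11 pairs. Both genes fell in 3 pairs: KCNC4 and KCNA2 on chromosome 1, KCNA6 and KCNA5 on chromosome 12, and CACNG5 and CACNG4 on chromosome 17 (66835117 to 66885486 and 66964910 to 67033398, GRCh38). In 5 pairs 1 gene was called and the other was not. KCNJ16 fell by 1.30 on the log2 scale while KCNJ2, 33.1 kb away, had a log2 fold change of 0.29, and KCNA2 fell by 0.94 while KCNA3, 41.0 kb away, had 0.19. In 3 pairs neither gene was called, and no pair held calls of opposite direction.

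Promoters of genes induced by IFNγ often hold the GAS motif, TTCNNNGAA, and genes of the interferon response the ISRE, sought here by its core, 2 copies of GAAA with any 2 bases between them. Both were sought on both strands in 300 bases around the RefSeq start of each gene, from 250 before to 50 after it (GRCh38.p14). The search found GAS in 7.88% of all 27305 windows and the ISRE core in 3.65%. Windows of the genes listed in the table held them in 6.21% and 2.75%, and those of the listed genes called higher in 8.17% and 9.22%. Of the 82 channel genes 60 had a window, 2 of these held GAS (KCNT2 and KCNC2) and none held the ISRE core. The KCNT2 match, 225 bases before the RefSeq start, is shown because KCNT2 had the largest rise after KCNIP4. It lies on chr1:196608647-196608675 (GRCh38.p14, minus strand), inside the 5′ UTR of 1 longer GENCODE transcript, and the capitals mark the motif. A match of letters is not evidence of binding, and KCNC2 was not called.
KCNT2: gcgcgtctttTTCGGCGAAgtaacttttt

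Other genes that shape excitability were described by a list of 84, of which 70 were listed. Of these 5 rose (7.14%) and 20 fell (28.6%), against 9.52% and 17.5% of all genes, with a median log2 fold change of -0.29. With TMM scaling 11 were called higher and 17 lower, against 13.1% and 11.6% of all genes. GEM, a small GTPase that inhibits calcium channels through their beta subunits, rose most, from 3.42, 3.77, 4.98 and 3.64 CPM to 30.9, 28.2, 61.9 and 39.4 CPM (log2 fold change 3.26). Its relative RRAD rose from 0.234 ± 0.112 to 0.700 ± 0.214 CPM (SD, n = 4), at few reads, and was not called with a pseudocount of 1. No control library of RRAD reached 0.5 CPM, the level for listing, so its rise carries the selection made by that filter. ATP1B1, a sodium pump subunit, rose from 57.5, 65.1, 124 and 103 CPM to 199.9, 184, 363 and 244 CPM, and CLCN5, a chloride and proton exchanger, rose by 0.63 on the log2 scale, or 0.54 and not called without cytokine library A (adjusted p = 0.0506 in limma). Without that library 3 genes of the list were called higher, and without cytokine library C 8 were. Over all 16525 genes these fits called 1438 and 1484 higher.

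ATP2B2, a plasma membrane calcium pump, fell from 12.8, 12.4, 7.62 and 7.53 CPM to 1.83, 1.26, 0.805 and 0.964 CPM, a log2 fold change of -2.97. RCOR2, a corepressor partner of the neuronal gene repressor REST, TRPM3, a cation channel, and ANK3, a scaffold that anchors sodium channels, fell by 1.40, 1.37 and 1.24 on the log2 scale. The genes of the ATP-sensitive potassium channel both fell, ABCC8 from 838, 861, 614 and 730.1 CPM to 428, 442, 380.2 and 441 CPM (log2 fold change -0.84) and KCNJ11 from 55.0 ± 7.07 to 35.1 ± 7.28 CPM (log2 fold change -0.66). The KCNJ11 call was not made by edgeR (log2 fold change -0.49, adjusted p = 0.0315), by DESeq2 or with median-of-ratios scaling. Of the L-type pore genes CACNA1D fell by 0.70 on the log2 scale, and CACNA1C was not called (log2 fold change -0.37, adjusted p = 0.0615 in limma) although its cytokine libraries were all below its controls.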

How the data were processed

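Per the labels and methods, strand-specific mRNA libraries were aligned with TopHat2 2.1.1 to GRCh38 and counted with HTSeq 0.9.1 at default settings on Ensembl 107. The authors deposited CPM, counts divided by the library total, for genes exceeding 0.5 CPM in 4 or more samples. Another 4 columns of values were not used here. Every value lay within 0.001 of a whole read (100% of values), so reads were recovered, and 81 of the 82 genes passed that filter in the 8 libraries used. The exception was KCNIP4, whose control libraries were all below 0.5 CPM. Intervals cover counting error only.

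The members, gene lists and tests were chosen with earlier results of these data known. Limma 3.58.1 (R 4.3.3) was run on log2(CPM + 0.1) with an intensity trend, and p-values were adjusted after Benjamini and Hochberg over 16525 genes. The study's test, edgeR, needs counts and was run on recovered reads (edgeR 4.0.16) as an alternative, with DESeq2 1.42.0, other scalings, pseudocounts of 0.5 and 1, a mean of at least 1 CPM, no trend, no fold threshold, limma's treat, blocks and leaving out each library. Scripts were tested on simulated data. The rule for named genes took up to 12 rises (8 were called) and 12 falls without overlap, the 2 highest per role and a list of beta-cell channels. The other members, among them KCNIP2, KCNT1, KCNH8, KCNMB4 and KCNC4, were added after their values were seen. Some genes that the rule covers are not reported here, though the counts include them. Lengths, coordinates and shared exon bases are from GENCODE 29, in which 9 channel genes share bases on their strand with another gene and 29 with a gene on the other strand. Whether the default strand setting of the counting matches the kit's orientation is not given in the sources used here.

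The pairing comes from shared column names. Deviations from the group mean correlated within pairs A to D by 0.57, 0.59, 0.80 and 0.74 over 14683 genes of at least 1 CPM, and between control A and cytokine library B by 0.57, which leaves these pairs undistinguished. No library was a copy of another within sampling noise, but A and B were much closer to each other (chi-square per gene of 5.90 with cytokines and 13.3 in control) than other libraries of a group (66.9 to 296). Python 3.11.15 and its packages pandas 2.3.3, numpy 2.4.6 and matplotlib 3.10.9 made tables and figures.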

Additional observations from a re-analysis of the deposited data

Results flagged for a closer look

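Among 132 groups of 4 libraries (66 genes in both conditions), 11 (8.33%) held 1 library whose distance to the nearest other library, as a share of the group's range in CPM, was above Dixon's 95% limit for 4 values. Chance flags about 1 in 20 groups. In 6 of the 11 the library was cytokine library C. It was the lowest for CACNA1A at 51.9 CPM (others 91.6 to 97.4), KCNK17 at 116 CPM (others 181 to 191), KCNT2 at 38.6 CPM (others 54.5 to 57.6), CACNA1C at 55.9 CPM (others 73.9 to 77.5) and CACNA1D at 43.9 CPM (others 64.6 to 65.8), and the highest for KCNF1 at 25.2 CPM (others 8.39 to 10.6).

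Control library D was the lowest for KCNH2 at 193 CPM (others 234 to 241) and for KCNK3 at 73.0 CPM (others 90.3 to 90.9). Control library C was the highest for KCNK10 at 6.29 CPM (others 4.59 to 4.81), control library B the highest for TRPM3 at 2.67 CPM (others 2.01 to 2.11), and cytokine library A the highest for KCNA6 at 5.60 CPM (others 4.59 to 4.74). The causes were not tested.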

How the results depend on the processing

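Over all alternatives but one the counts of 8 channel genes called higher and 36 lower stayed within 1.5 times: the exception was limma's treat, which tests for a change beyond 0.5 and gave 4 and 11 (potassium 3 and 8, calcium 0 and 2, sodium lower 1, HCN lower 0, other excitability genes 2 and 5). Over all 16525 genes treat called 732 higher and 646 lower. Leaving out 1 library gave 8 to 9 higher and 32 to 36 lower (potassium 6 and 19 to 21, calcium 1 to 2 and 7 to 9, sodium 1 and 3, HCN 0 and 3). Over all 16525 genes these fits called 1375 to 1700 higher and 2397 to 2922 lower. For the other excitability genes it gave 3 to 8 higher (3 without cytokine library A, 8 without cytokine library C) and 19 to 22 lower. The calcium genes called higher became 2 without cytokine library C. With TMM, median-of-ratios, edgeR or DESeq2, calcium and sodium genes called higher became 2 and 2, as with quantile normalization, and HCN genes called lower became 1 with median-of-ratios and with edgeR. The 5 other excitability genes called higher became 11 with TMM, 12 with median-of-ratios and with edgeR, 13 with DESeq2 and 10 without the fold threshold. Over all genes the 1574 higher calls became 2168, 2200, 2162, 2360 and 1760 in these settings, in the same order. 

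With the pairs as a replicate block, limma called 9 channel genes higher and 39 lower (calcium higher 2, also with a term for the 2 name endings; potassium 6 and 24, calcium lower 9, sodium 1 and 3, HCN 0 and 3) and 6 and 24 other excitability genes, and no call of the fit without the block was lost. Over all genes limma with the block called 11.6% higher and 23.8% lower. With TMM and the block, chosen after seeing the data, limma and edgeR both gave 11 and 32 channel genes (calcium and sodium higher 2 each), and 13 and 14 other excitability genes higher. Of all 16525 genes, limma then called 2632 higher and 2685 lower, and edgeR 2627 and 2660.

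The sign turned under some alternative in 14 of the 82 channel genes, none of them called. Among the genes chosen to be named it turned in 6: KCNMA1 to 0.0663 (TMM, with or without block), 0.0722 (median-of-ratios), 0.0638 and 0.0661 (edgeR without and with block), 0.0702 (DESeq2) and 0.0062 (without control C); KCNK17 to 0.1098 (TMM, with or without block), 0.1157, 0.122, 0.1101 and 0.1268 (median-of-ratios, edgeR without and with block, DESeq2) and 0.1224 (without cytokine C). HCN3 went to -0.0893, -0.0171 and -0.0083 without control C, cytokine A and cytokine B. KCNAB3 went to 0.0135 and KCNF1 to -0.1235 without cytokine C, and CACNA2D1 to -0.0227 without control A. Of the 44 called genes 40 were called in all 8 fits that left out 1 library, the others being KCNK5, KCND1, CACNG2 and CACNA1H. Over the other comparisons of the genes chosen to be named, 1399 kept direction and call, 66 lost and 26 gained a call. The causes were not tested. Depth limits the genes under 10 reads in some library, which number 5.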
